A study of Mus musculus with 8 samples.

Results

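The genes examined here encode the PIWI proteins and the core machinery that makes their guide RNAs, as found in the accessible chromatin of mouse spermatogonia. The set holds 10 genes, Piwil1, Piwil2, Piwil4, Ddx4, Mael, Mov10l1, Pld6, Asz1, Gtsf1 and Henmt1, chosen by name from knowledge of the pathway and matched exactly to the genes that the deposited peak table gives for each peak. All 10 were found, out of 21490 genes with a peak in any library. Together they held 146 of the 328733 peaks of all libraries, which merged into 33 of 87144 regions. Chromatin accessibility had been measured by ATAC-seq, in which a transposase cuts open chromatin, in germ cells sorted for PIWIL2-eGFP from the testes of neonatal mice. All animals carried the Tg(Piwil2/EGFP) transgene, in which the Piwil2 promoter drives eGFP, and all had received WIN 18,446, an inhibitor of retinoic acid synthesis, for 7 days. The 0 h animals were collected after WIN 18,446 alone, without retinoic acid (RA). The others were injected with RA in dimethyl sulfoxide at 9 days postpartum and collected 18, 48 or 120 h later. The methods name no injection for the 0 h animals, and age rose with time after RA. The parts of RA, of the injection and of age therefore cannot be told apart in contrasts with 0 h. Each timepoint had 2 libraries, each from the testes of 1 mouse. The labels give the strain as derived from C57BL/6 x 129s4/SvJae, whereas the methods name a C57BL/6 x SJL background.

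Piwi-interacting RNAs (piRNAs) are small RNAs of the germline that guide PIWI proteins to transposon transcripts and, through one of these proteins, to the DNA that encodes them. Long precursor transcripts are unwound and passed to a nuclease on the mitochondrial surface, loaded onto a PIWI protein, trimmed, and methylated at their end. In the mouse testis PIWIL2 (MILI) and PIWIL4 (MIWI2) act in fetal germ cells, PIWIL2 persists in spermatogonia, and PIWIL1 (MIWI) appears in meiotic cells, so the period sampled here lies between the fetal and the meiotic use of the pathway.

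The libraries differed strongly in overall signal, which bears on each value below. They held 24643 to 72215 peaks, with 69089 and 72215 at 0 h and 24643 to 39551 afterwards, and 14 to 21 peaks per library were assigned to the 10 genes. The height of a peak is its summit value in the deposited signal map, and 15536 regions were found in every library. Their median height was, on the log2 scale, 7.81 and 8.08 at 0 h, against 6.43 to 7.38 in the later libraries. Heights were therefore compared both as deposited and after subtracting each library's median log2 height ("centred"). A centred value says how a region stood relative to the typical shared region and cannot show a change that all regions shared. Markers of germ cells had a peak within 1000 bp of their start for 9 to 10 of 10 genes at 0 h and 8 to 9 of 10 later. For Sertoli cells the number was 5 of 6 in both 0 h libraries and 3 to 4 of 6 later, with the heights summing to 809 and 936 at 0 h and to 152 to 354 later. For peritubular myoid cells it was 4 of 4 at 0 h and 1 to 3 of 4 later (sums 496 and 548, then 86 to 276), for endothelial cells 1 of 4 in each library (sums 109 and 192, then 38 to 109), and for macrophages 1 to 2 of 5 at 0 h (sums 166 and 208) and 0 of 5 later. No Leydig marker had one. The germ cell markers summed to 2409 and 2973 at 0 h and to 1207 to 2423 later. The part of other cell types, or of the number of accessible cells as against the accessibility of each cell, in the results below was not tested.

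Each of the 10 genes had 1 region within 1000 bp of its start, here called its start region. In 7 of the 10, those of Piwil1, Piwil2, Ddx4, Mael, Mov10l1, Pld6 and Henmt1, the deposited table placed a CpG island. The start regions of Piwil4, Asz1 and Gtsf1 had none, although 88.7% of the 8971 start regions with a peak in all 8 libraries did. RefSeq promoter windows on GRCm38.p6 (the mm10 build), running from 250 bases before to 50 after the start, were matched for 9 of the 10 genes, the exception being Piwil2. The windows of Piwil4, Gtsf1 and Asz1 held 11, 13 and 17 CpG dinucleotides, the lowest of the 9, although Asz1 had 1 fewer than Piwil1 and Pld6. The other 6 genes had 18 to 38, and the median of all 32851 windows was 7. The sequences are shown for the 3 genes without an island and for 3 genes with one, each limited to the bases that no GENCODE exon covers, with CpG dinucleotides in capitals.
Piwil4, chr9:14740734-14740922, minus strand: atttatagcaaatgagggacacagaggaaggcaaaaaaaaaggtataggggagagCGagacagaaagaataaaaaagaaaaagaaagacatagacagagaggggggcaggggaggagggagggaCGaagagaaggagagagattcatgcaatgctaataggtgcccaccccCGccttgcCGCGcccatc
Gtsf1, chr15:103430471-103430677, minus strand: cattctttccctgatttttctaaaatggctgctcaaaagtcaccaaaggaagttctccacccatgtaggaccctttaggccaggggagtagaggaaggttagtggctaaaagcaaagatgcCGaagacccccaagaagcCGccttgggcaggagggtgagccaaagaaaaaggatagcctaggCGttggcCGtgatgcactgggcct
Asz1, chr6:18109062-18109311, minus strand: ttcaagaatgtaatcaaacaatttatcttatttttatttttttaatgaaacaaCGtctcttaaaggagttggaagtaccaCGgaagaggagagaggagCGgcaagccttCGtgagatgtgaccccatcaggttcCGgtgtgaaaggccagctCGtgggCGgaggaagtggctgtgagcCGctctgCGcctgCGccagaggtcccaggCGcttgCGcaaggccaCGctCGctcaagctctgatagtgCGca
Piwil1, chr5:128736030-128736173, plus strand: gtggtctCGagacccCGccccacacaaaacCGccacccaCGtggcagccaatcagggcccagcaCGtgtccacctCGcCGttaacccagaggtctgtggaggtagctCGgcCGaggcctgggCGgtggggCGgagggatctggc
Mov10l1, chr15:88982744-88982908, plus strand: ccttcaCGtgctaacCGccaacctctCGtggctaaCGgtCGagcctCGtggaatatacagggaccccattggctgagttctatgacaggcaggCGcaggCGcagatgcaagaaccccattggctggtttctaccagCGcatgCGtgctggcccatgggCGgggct
Mael, chr1:166238748-166238994, minus strand: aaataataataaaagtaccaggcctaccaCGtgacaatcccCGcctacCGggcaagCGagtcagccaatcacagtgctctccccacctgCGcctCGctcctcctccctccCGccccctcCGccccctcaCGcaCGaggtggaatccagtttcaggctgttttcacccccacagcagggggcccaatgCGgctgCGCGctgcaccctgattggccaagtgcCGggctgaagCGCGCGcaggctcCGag
In these stretches the CpG density was 2.65 per 100 bases upstream of Piwil4 and 1.93 upstream of Gtsf1, against 7.64 for Piwil1, 6.67 for Mov10l1 and 7.29 for Mael. The classes overlapped on this measure, since Asz1 had 6.0 per 100 bases and, among genes with an island whose stretches are not shown, Pld6 had 5.6, Ddx4 3.53 (over 85 bases) and Henmt1 16.7 (over 54 bases).

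Short motifs were counted on both strands of the 300-base windows. The E-box CACGTG, a letter sequence bound by many basic helix-loop-helix factors, occurred in 5 of 9 members, Piwil1, Ddx4, Mael, Mov10l1 and Pld6, where 7.15% of all windows held it and 11.6% of the 9764 windows with at least 18 CpGs did. Piwil1 had 2 copies, 179 and 154 bases before its start. CCAAT occurred in the same 5 genes, with 37.4% of all windows and 33.7% of the CpG-rich ones holding it. Mael had 3 copies and Mov10l1 and Ddx4 had 2 each. The E2F letters TCCCGC occurred in Ddx4 and Mael (20.0% of all windows). Of the letters bound by MYB factors, CAGTTG occurred in Piwil1 alone (13.7%) and CAGTTA in none of the 9 (10.1%). The retinoic acid receptor half-site letters AGGTCA (16.3%) and AGTTCA (14%) both occurred in Pld6 and in no other of the 9. None of the 7 motifs was found in the windows of Piwil4, Gtsf1, Asz1 or Henmt1. No matches of different motifs overlapped. The matches describe letters in a window and are not binding sites.

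All 10 start regions were called in both 0 h libraries, and 8 of the 10 had a peak in all 8 libraries, the exceptions being Piwil1 and Piwil4. Of all 14548 start regions called at 0 h, 61.7% did. Counting a gene as accessible when both libraries of a timepoint had any peak assigned to it, 8 of the 10 were accessible at all 4 timepoints, beside 72.8% of 20673 genes. Piwil1 failed this at 48 h and Piwil4 at 120 h, each through 1 library without a peak.

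Piwil2, which encodes the PIWI protein that takes part in the amplification cycle of piRNAs, had by far the highest start region of the set (chr14:70428655-70429716, intergenic and just upstream of the gene, also assigned to Polr3d). Its heights were 1073 and 1009 before RA, 494 and 551 after 18 h, 331 and 647 after 48 h, and 729 and 422 after 120 h. Both 0 h libraries exceeded every later one, and the later timepoints overlapped each other. The mean at 0 h exceeded 99.1% of start regions called at that time, and the later means exceeded 99.5%, 99.8% and 93.2% of those called at 18, 48 and 120 h, respectively. After centring, the largest difference from 0 h was 0.26 log2 ± 0.25 (SE) at 18 h, and no contrast passed the test. The 95% interval at 120 h against 0 h ran from -0.55 to 0.52. All animals carried the reporter, and reads from its Piwil2 promoter and from the chromosomal gene cannot be told apart in these heights. The part of the reporter in them was not tested.

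Piwil1, the meiotic PIWI gene, had 1 region in all, and at 0 h it was the lowest start region of the set (chr5:128735922-128736649). It lay over the RefSeq start and within an intron of a longer GENCODE transcript of the same gene. Its heights were 79 and 100 before RA, 58 and 54 after 18 h, 48 in 1 of the 48 h libraries with no peak in the other, and 43 and 44 after 120 h. Every later library was below both 0 h libraries. Its mean stood above 21.4% of the start regions called at 0 h and above 3.45% of those called at 120 h. Fewer regions were called after 0 h, so such percentiles do not share a reference between timepoints. A fall in them can occur without a fall relative to the library's median. Because 1 library lacked a peak, it was not part of the test over shared regions.

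Piwil4, whose product carries piRNAs into the nucleus and directs DNA methylation of transposons, had its start region over a coding exon (chr9:14740296-14740895, also assigned to Fut4). The heights were 170 and 103 before RA and 33 and 54 after 18 h. No peak was called at 48 h, and 1 library had a peak of 36 at 120 h. It was the only start region of the 10 with no peak in either library of a timepoint. Its mean stood above 38.0% of the start regions called at 0 h and above 4.27% of those called at 18 h, which are different sets. A second region, which the table places downstream of the gene and GENCODE in an intron (chr9:14697752-14698201), had heights of 89 and 96 at 0 h and 55 in 1 of the 18 h libraries, with no later peak. Another, nearby (chr9:14699023-14699347), was low and level, with 43 to 66 in 7 libraries. When a missing height was set to the lowest summit value of its library and 61310 regions were fitted, the start region was lower at 120 h than at 0 h (-1.25 log2 ± 0.35, adjusted p = 0.0137, limma). It entered this fit through 0 h and 18 h, and the size depends on the value filled in. The second region had a fitted difference of -1.03 ± 0.35. It entered only through 0 h, and both of its 120 h heights were filled in. Its direction was thus set by the filter and the fill, and it is not read as a change.

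**Figure D1:**
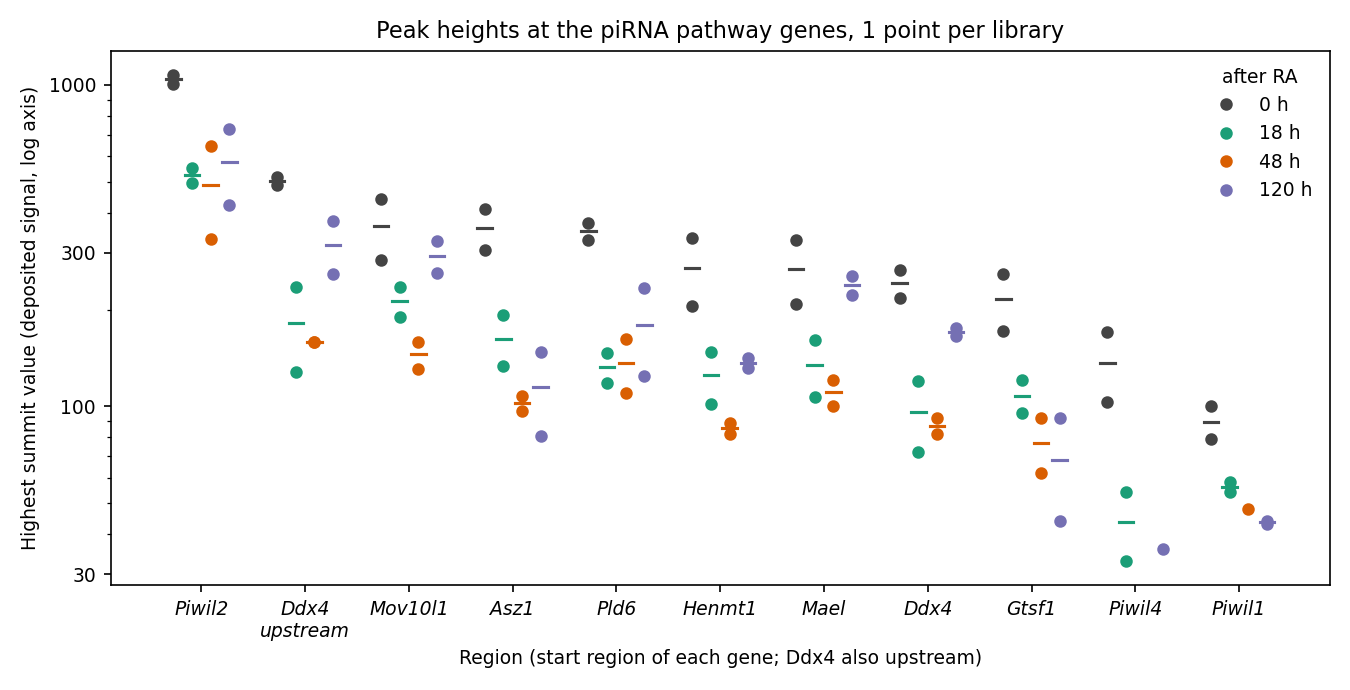
Highest summit value (deposited signal, log axis) of the 10 start regions and the upstream Ddx4 region, with 1 point per library, colours for time after RA, and short lines for the mean of both libraries where both had a peak. Piwil2 ranges from 331 to 1073, and Piwil4 has no point at 48 h and 1 at 120 h.

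Ddx4 encodes the germline RNA helicase VASA homolog. It was the only member with 2 regions present in every library. Its start region (chr13:112651804-112652819, its summit in the Ddx4 UTR, also assigned to Slc38a9) had heights of 218 and 266 before RA, 72 and 120 after 18 h, 92 and 82 after 48 h, and 165 and 175 after 120 h. The region with its summit 8394 bp upstream (chr13:112660385-112661189, intergenic, no CpG island, also assigned to Slc38a9) was higher than the start region in 8 of 8 libraries, with 516 and 488 before RA, 128 and 235 after 18 h, 158 in both 48 h libraries, and 377 and 258 after 120 h. Neither region passed the test in any centred contrast. At 120 h against 0 h the centred difference was 0.39 log2 ± 0.26 (95% interval -0.17 to 0.94) for the start and 0.20 ± 0.23 (-0.29 to 0.70) upstream. Without the first 120 h library the start passed the test (0.75, adjusted p = 0.0459). The 200 bases around the upstream summit, on the plus strand of GRCm38 at chr13:112660604-112660803, are 60.0% G or C, and CpG is again in capitals.
Ddx4 upstream: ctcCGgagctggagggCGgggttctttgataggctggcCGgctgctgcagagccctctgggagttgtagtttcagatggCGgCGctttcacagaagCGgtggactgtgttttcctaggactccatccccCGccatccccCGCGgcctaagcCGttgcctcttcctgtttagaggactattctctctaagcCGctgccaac
They hold 11 CpGs, in a region for which the table gives no island.

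The remaining machinery was present at its starts throughout. Pld6 (MitoPLD, the mitochondrial nuclease of precursor processing) had heights of 330 and 373 before RA, 118 and 147 after 18 h, 162 and 110 after 48 h, and 233 and 124 after 120 h (chr11:59786986-59787959, also assigned to Flcn and Mprip). Henmt1, the methyltransferase that protects piRNA 3′ ends, had 205 and 335, then 102 and 148, 89 and 82, and 141 and 132 (chr3:108939848-108941179, its summit in an exon of the overlapping Gm9857). That region was also assigned to LOC101055747, whose own start lay 936 bp from the summit. For Pld6 and Henmt1, the 0 h libraries lay above all later ones, and no centred contrast passed the test. At 120 h against 0 h the difference was -0.15 log2 ± 0.25 (95% interval -0.69 to 0.38) for Pld6 and -0.05 ± 0.25 (-0.58 to 0.48) for Henmt1.

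As deposited, the heights of all 9 member regions with a peak in every library fell from 0 h to 18 h (adjusted p of 0.000232 to 0.0455, limma), as did 92.3% of the 15536 regions. The members' median difference was -1.09 log2 and that of all regions -1.23. After centring, 0 of 9 were lower and 0 of 9 higher at 18 h (limma), where 0.225% and 1.25% of all regions were called. At an unadjusted p under 0.05, 1 of the 9 differed. That region was Mov10l1, at 0.50 log2 ± 0.21 (adjusted p = 0.312). At 48 h 0 of 9 were lower and 0 of 9 higher, where 1.51% and 3.26% of all regions were called, and 0 of 9 had an unadjusted p under 0.05. The members' centred differences ranged from -0.40 to 0.22 at 48 h, and the lowest was Asz1 (-0.40 ± 0.20, adjusted p = 0.299).

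At 120 h the members differed from 0 h in both directions. Of the 9 regions, 2 were lower than at 0 h (Gtsf1 and Asz1) and 2 higher (Mael and Mov10l1) after centring, where 15.8% of all regions were lower and 23.0% higher. The number of members called was close to that background, and the members' median difference was -0.02 log2 against 0.14 over all regions.

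Gtsf1 encodes a zinc-finger partner of PIWI proteins required for their silencing activity. Its start region (chr15:103430140-103430692, its summit in the Gtsf1 UTR, also assigned to BC048502) had heights of 172 and 258 before RA, 95 and 121 after 18 h, 62 and 92 after 48 h, and 92 and 44 after 120 h. On the centred scale both 120 h libraries (-0.85 and -1.27) lay below the other 6 (-0.47 to 0.06). The difference from 0 h was -0.84 log2 ± 0.22 (adjusted p = 0.0113) and that from 48 h -0.75 ± 0.22 (adjusted p = 0.039). The latter was the only call among the 9 at 120 h against 48 h, where 7.45% of all regions were lower and 9.47% higher, and none of the 9 was higher (3 of the 9 differed at an unadjusted p under 0.05). It was lost without either 18 h, either 48 h or the second 120 h library (adjusted p up to 0.221), and with missing heights filled in as for Piwil4 (adjusted p = 0.192). As deposited, the difference from 48 h was -0.25 and was not called. The mean stood above 56.6% of the start regions called at 0 h and above 17.1% of those called at 120 h, which are different sets. Without the second 120 h library the difference from 0 h was -0.63 (adjusted p = 0.102), and without the second 0 h library -0.68 (adjusted p = 0.0742).

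Asz1 (GASZ) encodes a protein of the intermitochondrial cement, where piRNA precursors are processed. Its start region (chr6:18108696-18109581, its summit in the Asz1 UTR) had heights of 307 and 410 before RA, 133 and 192 after 18 h, 97 and 108 after 48 h, and 148 and 81 after 120 h. Centred, the values were 0.45 to 0.73 in the 4 libraries of 0 and 18 h, 0.08 and 0.17 after 48 h, and -0.17 and -0.39 after 120 h, without overlap between these steps. The difference of 120 h from 0 h was -0.81 log2 ± 0.20 (adjusted p = 0.00806), and -0.69 without the second 120 h library (adjusted p = 0.0615). The mean stood above 77.1% of the start regions called at 0 h and above 37.2% of those called at 120 h, which are different sets. A further Asz1 region, 61861 bp from the start and beyond the end of the gene (chr6:18047014-18047683), had heights of 147 and 59 before RA, 35 and 37 after 18 h, 31 in 1 of the 48 h libraries, and no peak at 120 h.

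Mael encodes Maelstrom, a factor of piRNA precursor handling and transposon silencing. Its start region (chr1:166238263-166239107) had heights of 208 and 328 before RA, 107 and 161 after 18 h, 100 and 121 after 48 h, and 254 and 222 after 120 h. The deposited heights at 120 h lay between those of the 0 h libraries and above all from 18 and 48 h. Centred, 120 h was higher than 0 h by 0.75 log2 ± 0.23 (adjusted p = 0.0193), while as deposited the difference was -0.14 and was not called. The median start region was itself 0.32 higher on the centred scale, and centring on start regions in place of all regions gave 0.48 (adjusted p = 0.0798). Without the first 0 h library the difference was 0.56 (adjusted p = 0.143), and without the second 120 h library 0.53 (adjusted p = 0.161).

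Mov10l1, the RNA helicase that binds piRNA precursors, was likewise higher on the centred scale. Its start region (chr15:88982394-88983381, also assigned to Mlc1) had heights of 286 and 443 before RA, 189 and 235 after 18 h, 131 and 159 after 48 h, and 326 and 259 after 120 h. Centred, 120 h exceeded 0 h by 0.60 log2 ± 0.21 (adjusted p = 0.038). The call was lost when the first 0 h, either 18 h, either 48 h or the second 120 h library was left out (adjusted p up to 0.247), and on the start-region scale (0.33, adjusted p = 0.19). As deposited the difference was -0.29 and was not called. Beyond the gene's 3′ end, a region about 76 kb from its start (chr15:89058773-89059706, also assigned to Panx2) had heights of 262 and 240 at 0 h and of 56 to 93 in the 5 later libraries with a peak.

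**Figure D2:**
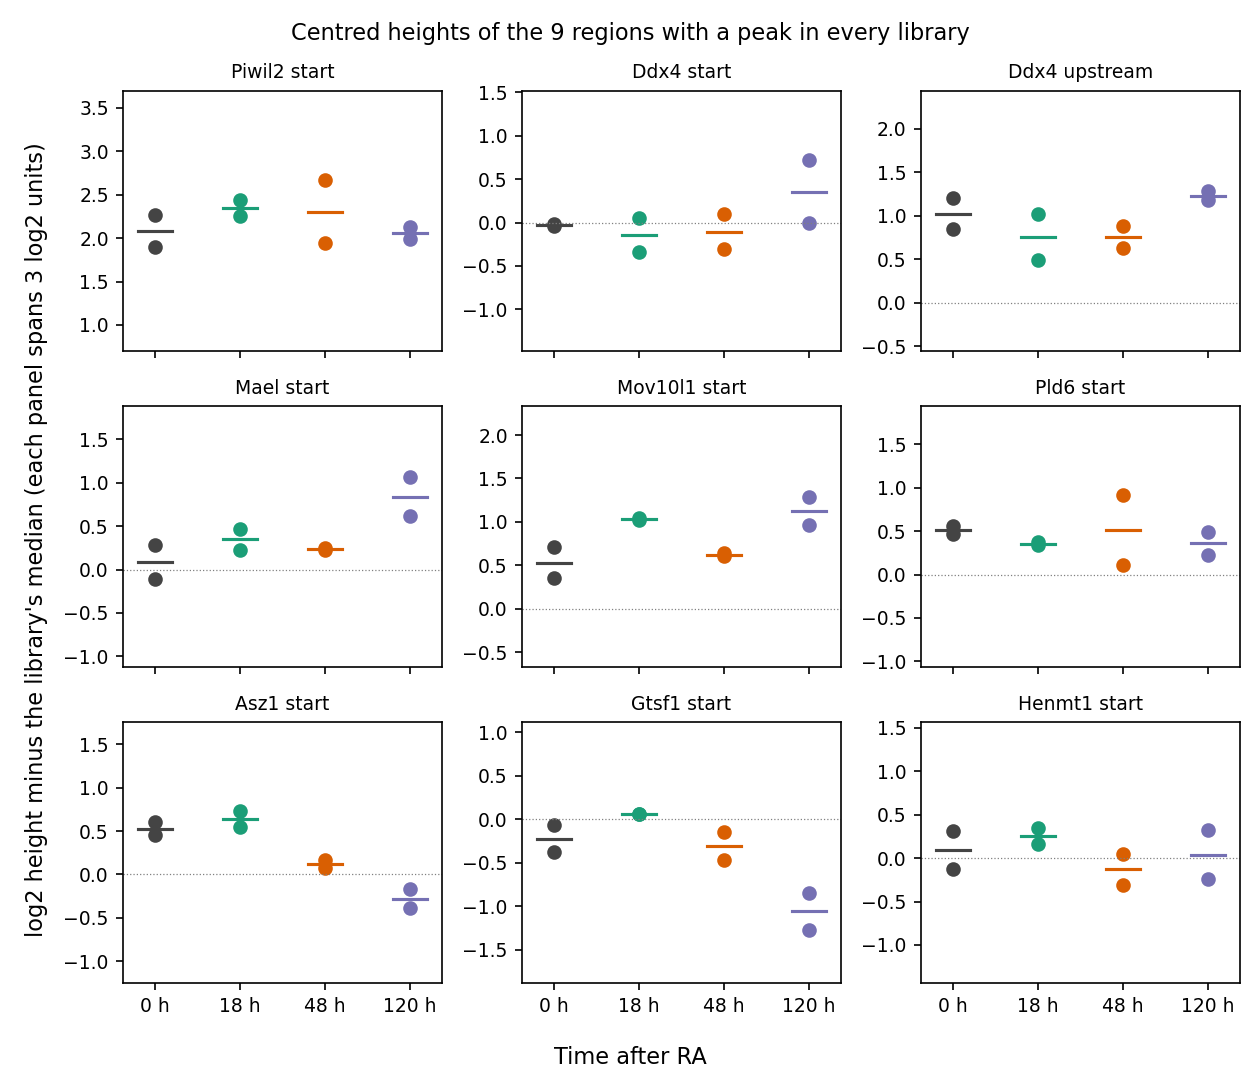
log2 height minus the library's median for the 9 regions with a peak in every library, by time after RA, with 1 point per library and a line at the mean, and with each panel spanning the same 3 log2 units. In the panels of Asz1 and Gtsf1 both 120 h points are the lowest, and in that of Mael both are the highest.

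On the centred scale, the members called lower at 120 h were those without a CpG island at their start. Of the 8 start regions tested, the 2 without an island (Asz1 and Gtsf1) were both lower, and of the 6 with one 0 were lower and 2 were higher. Piwil4, the remaining gene without an island, had too few peaks to be tested in this way. Among all start regions tested, 28.2% of the 1017 without an island were lower at 120 h and 11.6% higher, whereas of the 7954 with an island 5.88% were lower and 31.9% higher. Among the regions called in each class, the members' direction was the more common one. Asz1 and Gtsf1 were lower on the deposited scale (-1.70 and -1.73) and when centred on start regions (-1.08 and -1.11), whereas Mael and Mov10l1 were called on neither. As deposited, starts with an island were lower too, namely Pld6 (-1.05, adjusted p = 0.0139, limma), Henmt1 (-0.94, adjusted p = 0.0279) and Piwil2 (-0.91, adjusted p = 0.0345). The split by island was thus not seen on that scale, where 6955 of the 15536 regions were lower. With quantile normalization Asz1 alone of the 4 passed (-0.79, adjusted p = 0.0144).

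**Figure D3:**
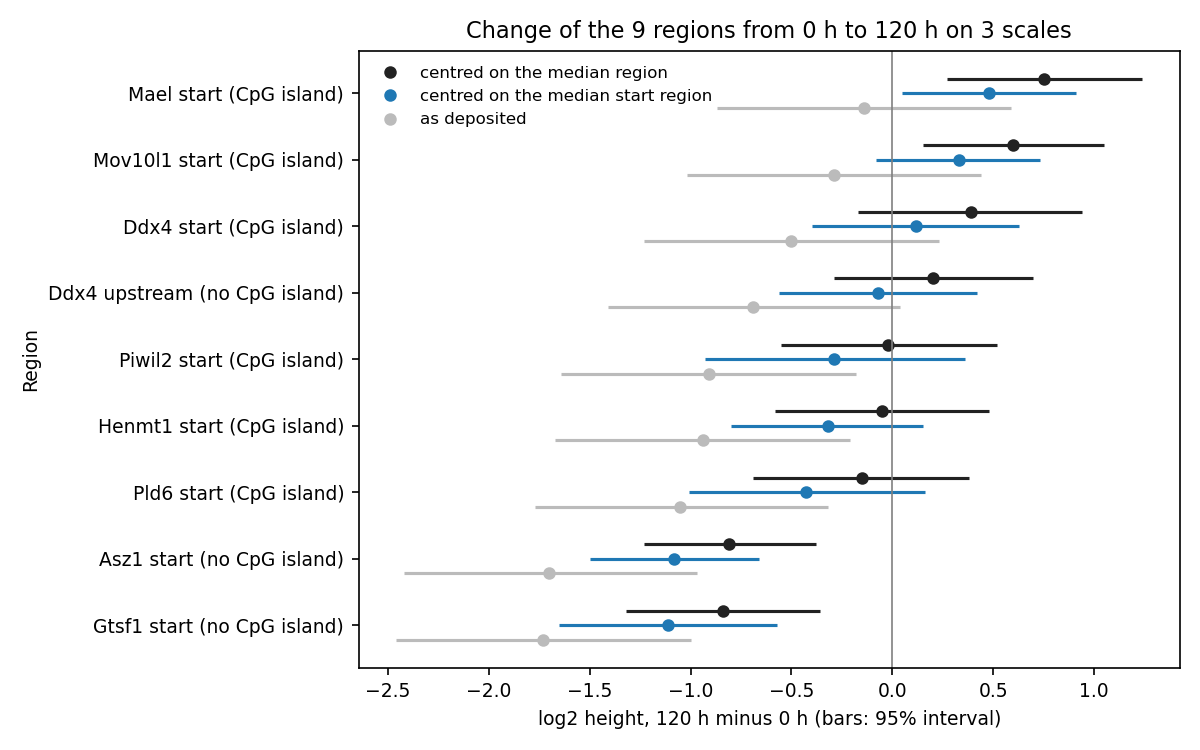
Difference in log2 height between 120 h and 0 h for the 9 regions on 3 scales, with points for the estimate and bars for the 95% interval, and the presence of a CpG island given beside each name. The intervals of Asz1 and Gtsf1 lie below 0 on each scale, whereas Mael lies at 0.75, 0.48 or -0.14 depending on the scale. The estimates of Piwil2, Pld6 and Henmt1 are also below 0 on each, with intervals that exclude 0 only as deposited.

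The number of peaks per gene did not separate 0 h from later times in the set. In 0 of the 10 genes did both 0 h libraries have more peaks than every later library, where 36.9% of the 21490 genes did. Gtsf1 had exactly 1 peak in each library. Piwil4 had 3 and 3 peaks before RA, 2 and 3 after 18 h, 1 and 1 after 48 h, and 2 and 0 after 120 h. Piwil2 had 3 peaks in each 0 h library, 2 and 3 after 18 h, 3 and 6 after 48 h, and 5 and 2 after 120 h. With 24643 peaks kept per library, the highest in each, Piwil2 had 1 peak in each 0 h library and 2 to 6 in the later ones. Of the 33 member regions, 18 were called in both libraries before RA, 14 after 18 h, 13 after 48 h and 13 after 120 h, where 67.8%, 27.6%, 25.5% and 25.4% of all 87144 regions were. With equal numbers of the highest peaks per library the members' counts were 11, 11, 12 and 12, so the higher count before RA was not seen on that basis.

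Piwil2 also differed from the other members in its minor peaks. It had 11 of the 33 regions, and 7 of these were found in 1 library only. Their heights were 67 to 95 (median 81), whereas the 5 such regions at other members, in Ddx4, Mael and Mov10l1, had 27 to 39. Of all 22973 regions found in a single library the median was 42, and 87.2% were lower than the lowest of the 7. Within their own libraries, the 7 stood above 76.8% to 98.6% of such regions. They were scattered over the locus, at 9.0 kb upstream (18 h), within introns at 6.6, 14.8, 39.0, 41.5 and 47.3 kb, and at 58.0 kb, past the end of the gene, and no 2 shared a place. The lowest of all 27 Piwil2 peaks was 53, below which lay 22 of the 119 peaks of the other members. Around the gene, the 80 peaks from 70 kb before to 100 kb after the Piwil2 start also had 53 as their lowest height. These limits were set after the values were seen, and many of the 80 are the same region in several libraries. Within 150 kb of the start, peaks went down to 39. The height 53 is the minimum of the peaks so chosen, so no comparison with all peaks is drawn from it. The reporter used for sorting carries Piwil2 promoter sequence, and reads from its copies and from the chromosomal gene cannot be told apart in these values. Whether the reporter has a part in them was not tested.

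**Figure D4:**
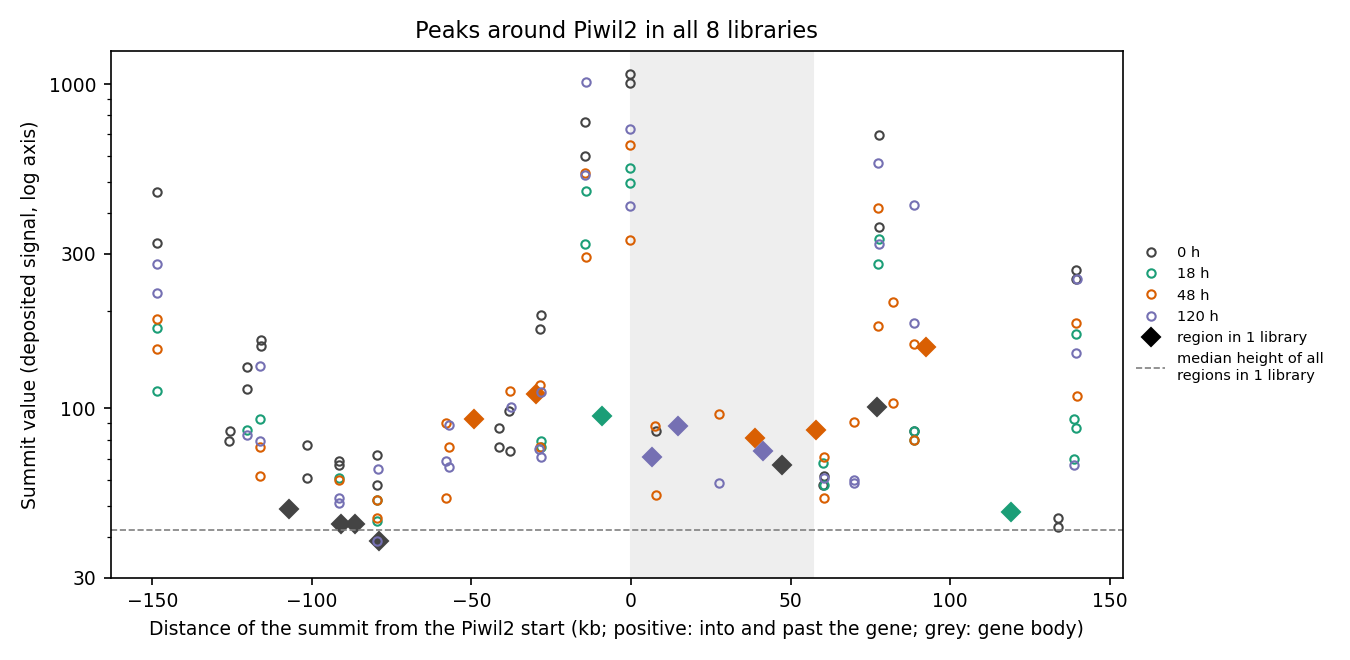
Summit values (deposited signal, log axis) of all 135 peaks within 150 kb of the Piwil2 start in the 8 libraries, by distance in kb, with diamonds for regions found in 1 library, the gene body in grey and a dashed line at 42, the median height of all such regions. The 7 diamonds of peaks assigned to Piwil2 lie at 67 to 95, and of the 16 in the window 15 lie above the line.

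A Piwil2 region in a coding exon 7.6 kb into the gene (chr14:70421056-70421590) had heights of 85 in 1 of the 0 h libraries, 54 and 88 at 48 h and no other peak. With missing heights set to the lowest value of the library, its fitted difference was 1.97 log2 ± 0.41 at 48 h against 0 h. At 120 h against 48 h it was -1.99 ± 0.41. Both differences rest in part on filled-in heights, and the region entered the fit only through 48 h, where both libraries had a peak. Neither is therefore read as a change. A region 60.5 kb from the start, past the gene (chr14:70368388-70369139), had heights of 53 to 71 in 7 libraries and no peak in the second 120 h library. Its heights stayed level while the library medians were lower after 0 h. In the same fit with filled-in heights, its centred difference from 0 h was 1.33 ± 0.34 at 18 h (adjusted p = 0.0389, limma) and 1.43 ± 0.34 at 48 h (adjusted p = 0.0129). The share of all regions called in that fit is not given here. These differences are read only as a level height beside lower medians.

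The start regions that varied most like that of Piwil2 over the 8 libraries, by Pearson's r of centred log2 height among 8970 others, were those of Lynx1 (0.893), of Fam229b and Tube1 (0.881), and of Zfp106 (0.872). Lynx1 encodes a modulator of nicotinic receptors, Tube1 epsilon-tubulin and Zfp106 a zinc-finger protein. Their heights were far lower, for example 127 and 136 at 0 h and 48 to 92 later for Lynx1. These correlations rest on 8 libraries and are given as a description.

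The other genes of the pathway also held members of either direction. The Tudor-domain proteins, which bind methylated PIWI proteins and assemble the granules they work in, had peaks for 9 of 9 genes, and 8 of the 9 were accessible at all 4 timepoints (72.8% of all genes). Differences for these genes are on the centred scale. Of their 13 regions with a peak in every library, 0 were called at 18 h, where 0.225% of all regions were lower and 1.25% higher. At 48 h 1 was lower and 0 higher, where 1.51% and 3.26% of all regions were. At 120 h against 0 h 2 were lower and 3 higher, close to the 15.8% and 23.0% of all regions, with a median of 0.13 log2 (all regions 0.14). Tdrd1, a partner of PIWIL2, held 3 of these calls in both directions. Its region 4001 bp upstream was higher (0.71 ± 0.19, adjusted p = 0.0127), with heights of 448 and 477 before RA and 503 and 331 after 120 h. Its region 26399 bp into the gene was lower (-1.60 ± 0.25, adjusted p = 0.000734), with 403 and 364 before RA and 105 and 44 after 120 h, and was already lower at 48 h (-1.14 ± 0.25, adjusted p = 0.0206). A region 48095 bp into the gene was lower as well (-1.09 ± 0.20, adjusted p = 0.00165). The start regions of Tdrd9, a helicase (0.63 ± 0.22, adjusted p = 0.0337), and Tdrd7 (0.60 ± 0.20, adjusted p = 0.0275) were higher. The heights of Tdrd9 were 144 and 231 before RA and 169 and 138 after 120 h, and those of Tdrd7 258 and 334, then 302 and 191. As deposited, the differences of these higher regions were -0.18 (Tdrd1), -0.26 (Tdrd9) and -0.29 (Tdrd7) and were not called, nor was any of the 3 called when centred on start regions. At 120 h against 48 h, 1 of the 13 was higher, the upstream Tdrd1 region (0.74 ± 0.19, adjusted p = 0.0284, limma), and 0 were lower. Of all regions, 9.47% were higher and 7.45% lower in that contrast.

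Of 14 further piRNA factors (trimming, transcription and DNA methylation), 13 had a peak and 9 were accessible at all 4 timepoints (72.8% of all genes). Of their 14 shared regions, 0 were called at 18 h, where 0.225% of all regions were lower and 1.25% higher. At 48 h 0 were called, where 1.51% of all regions were lower and 3.26% higher. At 120 h against 0 h 2 were lower and 2 higher, where 15.8% and 23.0% of all regions were. Their centred median was 0.03 log2. The largest differences were at Fkbp6, Hsp90aa1 and Spocd1. Fkbp6, a co-chaperone of the pathway, was lower in a region 9497 bp upstream (-0.98 ± 0.24, adjusted p = 0.00835, limma). Hsp90aa1, its chaperone partner, was higher at its start (0.92 ± 0.20, adjusted p = 0.00443). Spocd1, a partner of PIWIL4 in DNA methylation, was lower in a region 7931 bp into the gene (-0.62 ± 0.20, adjusted p = 0.0294). As deposited, Hsp90aa1 had 295 and 326 before RA and 372 and 269 after 120 h, a difference of 0.03 that was not called, while Fkbp6 (-1.87) and Spocd1 (-1.51) were lower. No region of this list was called at 120 h against 48 h, where 7.45% of all regions were lower and 9.47% higher.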

How the data were processed

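The authors aligned paired-end reads to mm10 with BWA 0.7.12, removed duplicates, extended alignments in silico, binned them into signal maps and called peaks per library with MACS2 2.1.0. They had also reduced the libraries to the same number of tags (reads). The deposited peak table gives for each peak the summit and mean coverage signal, the genes within 10 kb and CpG islands. The labels give 100000 cells per replicate, and the methods give another number. The number of reads behind each peak is not in this table, so counting error is unknown. Here, peaks of all libraries sharing 1 bp or more were joined into regions, and a region took the highest summit value per library. For the 15536 regions present in every library, log2 heights minus the library's median were fitted with limma 3.58.1 in R 4.3.3 over all 4 timepoints, with Benjamini-Hochberg adjustment over all regions at 0.05 and no pseudocount. The methods' count-based test could not be used on summit values. Testing regions present in every library leaves out those lost at a timepoint. The scripts were tested on simulated data. Annotation was RefSeq and GENCODE vM21 on GRCm38.p6. Members' regions within 1000 bp of a start or present in every library are given by library. Of the members' other regions, some are also given by library, chosen after their values were seen, and the rest by range. From the 2 pathway lists, up to 3 genes with the largest differences are named. Members and lists were chosen with earlier results of these data known. The same-numbered libraries are separate animals, and the p-values cover the spread between animals and preparations together.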

Additional observations from a re-analysis of the deposited data

How the results depend on the processing

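Without centring, the number of member regions called lower was 9 at 18 h, 9 at 48 h and 5 at 120 h against 0 h and 0 at 120 h against 48 h, where 4 were called higher, and 0 were higher at 120 h against 0 h. Of all 15536 regions, 14337, 14490 and 6955 were lower at 18, 48 and 120 h against 0 h without centring, and 137 were higher at 120 h. At 120 h against 48 h, 28 of all regions were lower and 3684 higher. On that scale the sign turned at 18 h for the starts of Piwil2 (-1.0), Mael (-0.99), Mov10l1 (-0.76), Asz1 (-1.15), Gtsf1 (-0.97) and Henmt1 (-1.09), at 48 h for Piwil2 (-1.17), Mael (-1.25) and Mov10l1 (-1.3), and at 120 h for Mael (-0.14) and Mov10l1 (-0.29), and, called on neither scale, for the Ddx4 start (-0.50) and upstream region (-0.69), since the median of all regions moved by -1.23, -1.36 and -0.75. At 120 h against 48 h it turned, also without a call, for the starts of Piwil2 (0.26), Pld6 (0.35) and Asz1 (0.10). With quantile normalization, 1 region was lower and 0 higher at 120 h against 0 h, and 0 lower against 48 h. Centring on start regions left 0 higher at 120 h, the mean signal of the peak left 1, and a fit to only the libraries compared left 1. With missing heights at the lowest value, 1 was higher at 18 h, 2 at 48 h and 0 at 120 h, and the 2 lower at 120 h were then both in Piwil4 and not in Asz1 or Gtsf1, and the 1 lower at 120 h against 48 h was in Piwil2 and not in Gtsf1. This Piwil2 region and the second Piwil4 region had entered that fit only through the timepoint where they were high. Removing the GC trend left the same number of calls in each contrast. Leaving out 1 library gave 0 to 2 lower and 0 to 3 higher at 120 h against 0 h, 0 to 1 lower and 0 higher at 120 h against 48 h, and 0 at 18 h and 48 h. Of the 6 pairs of timepoints, same-numbered libraries deviated with positive correlations in those among 0, 18 and 120 h (0.184, 0.248 and 0.23), and with 0.094, -0.144 and -0.224 in those with 48 h. Not every pair exceeded 0.1, so the numbers were not taken to pair the samples. The fit with a replicate block called 2 lower and 2 higher at 120 h against 0 h.

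With equal numbers of the highest peaks, the member regions called numbered 11 before RA, then 11, 12 and 12, and a peak in either library gave 21 at 48 h and 20 at 120 h. Leaving out 1 library and counting its timepoint on the other gave 18 to 21 regions at 0 h, 14 to 20 at 18 h, 13 to 19 at 48 h and 13 to 19 at 120 h. The genes with more peaks in both 0 h libraries than in any later library numbered 2 at a summit value of at least 50, and 0 to 1 when 1 library was left out. With 2 libraries per timepoint and no read counts, a contrast that was not called may still hold a difference of any size within its interval.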
